A study of Arabidopsis thaliana with 6 samples.

Results

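The AP2/ERF genes encode a large plant family of transcription factors that share the AP2 DNA-binding domain. Members were taken as the protein-coding genes whose deposited description names an integrase-type DNA-binding protein, an ethylene-responsive factor or binding protein, an ERF domain protein, a cytokinin response factor, a protein related to AP2, a DREB protein or a C-repeat binding factor. The match gave 128 genes of 38194 in the table, and 119 of them could be placed in a subfamily of the usual family classification. Of the 9 others, DRIP1 and DRIP2 are ubiquitin ligases that act on a DREB protein and are not transcription factors of the family. The rule takes them in, so the counts below include them, and DRIP2 is among the genes called higher. The match does not cover the whole family: 20 AP2/ERF genes with other descriptions, DREB2A and RAV1 among them, are given apart.

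The data are RNA-seq levels from whole Arabidopsis thaliana seedlings at day 7 after stratification. The 3 biological replicates of an RNA interference line named sqtl1 RNAi, labelled as of Col-0 background, were set against 3 of wild-type Col-0. Both groups grew under the same cycle of 16 h light and 8 h dark on sucrose-containing medium. Neither the targeted locus nor the promoter of the construct, nor the number of independent lines, is stated in the labels, so the knockdown was not checked. Levels are RPKM, read counts scaled to gene length and library size, and the steps between low values give an estimated depth of 43.7 to 46.9 M reads in the RNAi libraries and of 38 to 49.8 M reads in Col-0. Markers of leaf, root, shoot meristem and seed were also read. All 4 leaf marker genes were lower in the RNAi line (summed level 15220 to 23710 RPKM, against 33800 to 35690 in Col-0). Of 5 root markers, 3 were lower, and the level summed over all 5 was 112.6 to 122.0 against 159.6 to 188.3 RPKM. The leaf calls of CAB1, RBCS1A and RCA were lost without RNAi replicate 2 or any 1 Col-0 replicate (adjusted p up to 0.133), that of RCA also without RNAi replicate 1. CAB1 and RBCS1A also lost the call with quantile normalization between libraries, with a replicate block and with no filter on low values (limma adjusted p up to 0.855 over the alternatives). RCA lost it with the replicate block and with no filter (up to 0.364). The call of LHCB2.1 was kept. All 3 shoot meristem markers were higher (33.86 to 46.15 against 5.96 to 7.61 RPKM), and so were all 4 seed storage genes (18.97 to 114.2 against 0.05 to 1.27 RPKM). The seed genes and the meristem marker KNAT2 averaged under 1 RPKM in Col-0, and passed the filter of 1 RPKM over all libraries through their RNAi values. With no filter SESA1, SESA2, CRA1 and KNAT2 kept the call (limma adjusted p up to 0.0222 over the alternatives), while CRU3 lost it. CRU3 also lost the call with a pseudocount of 5 and without Col-0 replicate 1 or 3 (adjusted p up to 0.0634 over the alternatives). Whole seedlings were ground, so fewer cells of a type and less RNA per cell cannot be told apart, and the part of these shifts in the results below was not tested.

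AP2/ERF factors bind short DNA elements through the AP2 domain. The DREB branch is best known for binding the dehydration-responsive element in genes of cold and drought tolerance, and the ERF branch for binding the GCC box in ethylene and defence genes. The branch with a doubled AP2 domain, named after APETALA2, AINTEGUMENTA and WRINKLED1, acts in flowering, organ growth and seed oil synthesis. Some members activate transcription and others, such as ERF4, repress it.

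Of the 128 genes, 75 averaged at least 1 RPKM over all 6 libraries and were tested. By limma's moderated test on log2(RPKM + 1), 25 rose and 17 fell in sqtl1 RNAi at an adjusted p under 0.05. Among all 19458 genes tested, 25.2% were called higher and 27.5% lower, 52.6% together. The 56.0% of tested AP2/ERF genes called is close to that background. RNAi and Col-0 values lay wholly apart in 26 genes that were higher and 18 that were lower, while among all tested genes the shares were 31.1% and 33.0%, 64.1% together. The median log2 fold change was 0.02 for the tested AP2/ERF genes and -0.01 for all tested genes. Of the 25 higher genes, 4 had a Col-0 mean under 1 RPKM: DREB19, AT1G44830, ERF12 and ERF11. They passed the filter through their RNAi values, so their p-values with the filter are no support and are not given. With no filter on low values all 4 were called, with limma adjusted p between 0.00181 and 0.0442. Calls of 1 log2 unit or more numbered 6 on the higher side and 1 on the lower, where all tested genes gave 3.36% and 3.26%, 6.61% together.

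The calls were not equally firm. Leaving out each library in turn, 15 of the 25 higher and 5 of the 17 lower genes were called every time. The number called was 17 higher and 6 lower without RNAi replicate 2, 15 and 9 without Col-0 replicate 1, 18 and 6 without Col-0 replicate 2, and 17 and 9 without Col-0 replicate 3. In these 4 fits 18.0% to 18.9% of all tested genes were called higher and 20.6% to 21.2% lower, against 20% to 24% and 8% to 12% of the AP2/ERF genes. Without RNAi replicate 1, 33.3% of the AP2/ERF genes were called higher and 22.7% lower, against 26.0% and 27.9% of all tested genes. Without RNAi replicate 3 the shares were 34.7% and 25.3%, against 28.5% and 31.0%. RNAi replicate 3 lay nearest to Col-0 for 17 of the 25 higher and 11 of the 17 lower genes. The 15 firm increases were in DREB19, CRF6, AT1G44830, Rap2.6L, ESE3, RAP2.2, CRF10, EBP, ANT, CRF5, ERF12, AT1G77640, AT1G64380, RAP2.12 and AT5G51190. DREB19, AT1G44830 and ERF12 passed the filter through their RNAi values, and these fits keep that filter. For these genes, keeping the call is therefore no support. The 5 firm decreases were in AT5G61590, DEAR2, AT3G16280, AT4G32800 and AT4G16750.

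**Figure D1:**
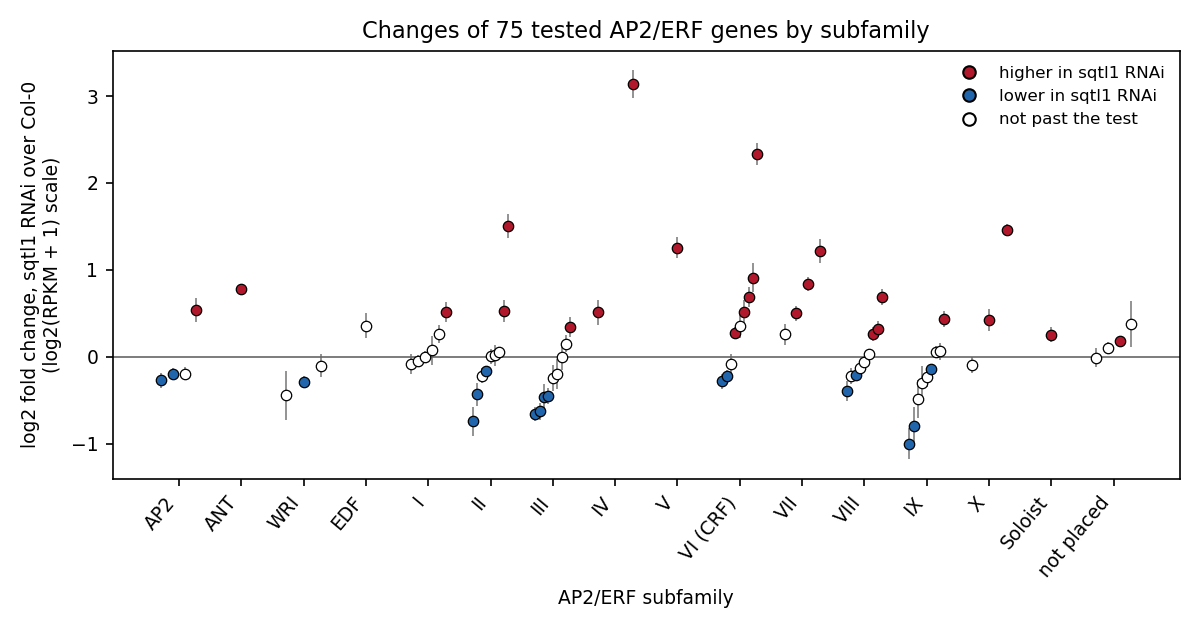
Each point is 1 of the 75 tested AP2/ERF genes, placed by subfamily on the x axis, with its log2 fold change of sqtl1 RNAi over Col-0 on the log2(RPKM + 1) scale and its standard error; red points were called higher, blue points lower and white points neither. The point farthest above 0 is DREB19 in subfamily IV, at 3.14, and the point farthest below is AT5G61590 in subfamily IX, at -1.0.

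Subfamily VII holds the oxygen-sensing factors. Their proteins start with methionine and cysteine, and in the presence of oxygen plant cysteine oxidases oxidise that cysteine and so mark the protein for degradation. The first 30 coding bases of the 5 genes, read from the TAIR10.1 genome with its RefSeq annotation, are shown because this start sets the subfamily apart. Capitals mark the second codon, TGT or TGC for cysteine.
RAP2.12 (chr1:20135242-20135271, plus strand): atgTGTggaggagctataatatccgatttc
RAP2.2 (chr3:4738971-4739000, minus strand): atgTGTggaggagctataatctccgatttc
EBP (chr3:5705784-5705813, plus strand): atgTGTggcggtgctattatttccgattat
ERF73 (chr1:27241904-27241933, plus strand): atgTGCggaggagctgtaatttccgattac
ERF71 (chr2:19503461-19503490, minus strand): atgTGTgggggagctatcatttctgatttc
Of the 128 AP2/ERF genes, 6 have an annotated coding start with a cysteine codon at position 2, and 5 of the 6 are these genes. The other is ABR1 of subfamily X. ERF73 also has an annotated alternative start without that codon.

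The 3 subfamily VII genes that are known as constitutively expressed rose, and with AT5G61590 they were the 4 AP2/ERF genes of highest mean level. RAP2.2 was at 191.24, 166.76 and 129.46 RPKM in the RNAi libraries and at 70.64, 68.85 and 66.32 RPKM in Col-0. Every RNAi library lay above every Col-0 library, and the mean was 2.37-fold higher (162 ± 31.1 against 68.6 ± 2.17 RPKM, SD, n = 3 each). The log2 fold change was 1.21 (SE 0.14, limma adjusted p = 0.000909). EBP, also named RAP2.3, was at 127.47, 141 and 122.65 RPKM in the RNAi line and at 77.84, 71.47 and 68.36 RPKM in Col-0. The groups did not overlap, and EBP was 1.8-fold higher (limma adjusted p = 0.000495). RAP2.12, at 131.71, 121.19 and 105.5 RPKM against 85.55, 84.61 and 81.41 RPKM in Col-0, rose 1.42-fold (limma adjusted p = 0.00388). In Col-0, RAP2.12 was the highest of the 3 genes, while in the RNAi line the means were 162 RPKM for RAP2.2, 130 for EBP and 119 for RAP2.12, and the ranges of the 3 genes overlapped. All 3 kept the call whichever library was left out.

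The hypoxia-inducible members of the subfamily gave no call. ERF73, also named HRE1, averaged 10.7 ± 1.78 RPKM in the RNAi line and 8.75 ± 0.62 RPKM in Col-0 (log2 fold change 0.26, limma adjusted p = 0.113), and its RNAi values of 8.68, 11.72 and 11.81 RPKM overlapped the Col-0 values of 8.08, 8.88 and 9.3 RPKM. Without RNAi replicate 1 it was called (log2 fold change 0.39, adjusted p = 0.00358). Its span shares 124 bases with AT1G72370, which averaged 508 RPKM in the RNAi line and 375 RPKM in Col-0, and the part of reads from that gene was not tested. ERF71, also named HRE2, was too low to be tested, at 1.76, 1.45 and 0.44 RPKM against 0.39, 0.45 and 0.67 RPKM. RNAi replicates 1 and 2 lay above Col-0 and replicate 3 within it.

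Genes that subfamily VII factors are known to activate under low oxygen were higher: of 7 listed, 6 rose and none fell, and the seventh, SUS4, missed the threshold at a log2 fold change of -0.30. The share called higher was 85.7%, against 25.2% of all tested genes. HB1, a class 1 haemoglobin gene, was at 128.07, 112.84 and 68.7 RPKM in the RNAi line, against 10.74, 10.22 and 10.88 RPKM in Col-0, 9.72-fold higher (limma adjusted p = 0.000239). The plant cysteine oxidase genes PCO1 (AT5G15120) and PCO2 (AT5G39890), whose products act on the subfamily VII proteins, averaged 19.0 ± 6.49 against 5.25 ± 0.548 RPKM and 15.9 ± 6.15 against 4.24 ± 0.6 RPKM. Their log2 fold changes were both 1.63 (limma adjusted p = 0.00196 for AT5G15120 and 0.00244 for AT5G39890). In each of these 3 genes RNAi replicate 3 was the lowest of the RNAi libraries and still above Col-0. Of the 6 higher genes, PDC1 (AT4G33070) lost the call without RNAi replicate 2, Col-0 replicate 1 or Col-0 replicate 2 (adjusted p up to 0.0879).

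**Figure D2:**
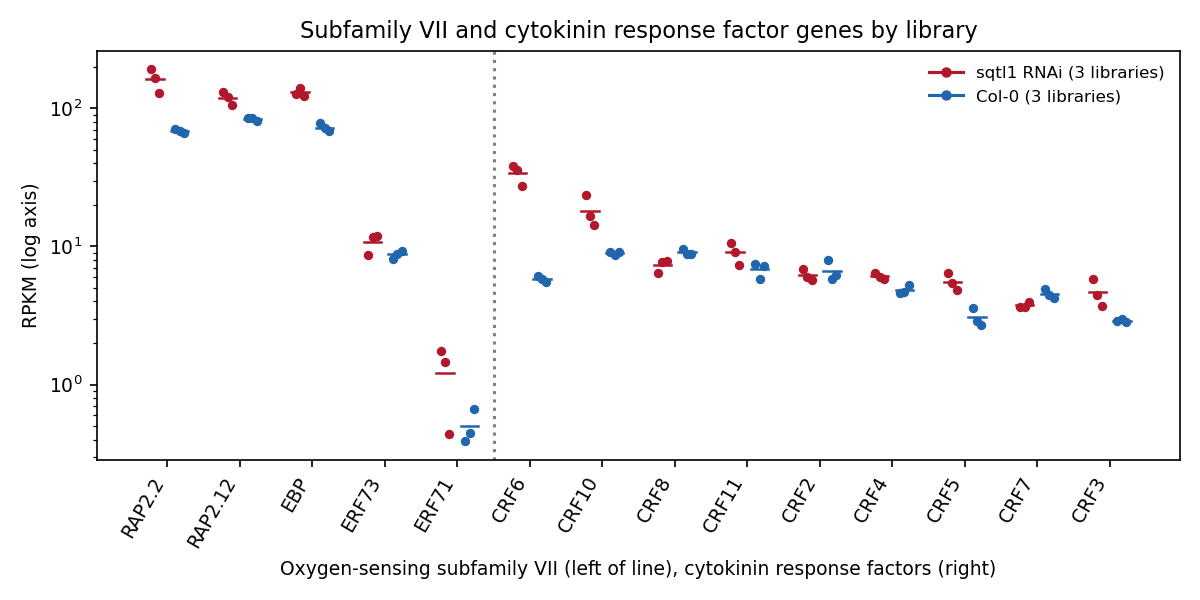
RPKM on a log axis for each library of the 5 subfamily VII genes, left of the dotted line, and the 9 tested cytokinin response factor genes, right of it; red points are sqtl1 RNAi libraries, blue points Col-0 libraries and short lines group means. RAP2.2, RAP2.12, EBP and CRF6 show red points wholly above blue points, while ERF73, ERF71 and CRF2 overlap.

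Cytokinin response factors, subfamily VI, act beside the cytokinin phosphorelay in leaf and embryo development, and CRF6 is also known as a responder to oxidative and mitochondrial stress. Of 11 members, 9 were tested, 5 rose and 2 fell. The shares were 55.6% and 22.2% of those tested, against 25.2% and 27.5% of all tested genes. CRF6 (chromosome 3, 22804998 to 22806527, TAIR10.1) was at 38.33, 35.68 and 27.16 RPKM in the RNAi line and at 6.12, 5.85 and 5.5 RPKM in Col-0. The groups lay far apart, with a 5.79-fold higher mean, a log2 fold change of 2.33 (SE 0.13) and a limma adjusted p of 0.000121. CRF10 rose 2.02-fold, at 23.6, 16.68 and 14.31 RPKM against 9.18, 8.74 and 9.09 RPKM in Col-0 (limma adjusted p = 0.00445). CRF5 rose 1.81-fold, at 6.39, 5.41 and 4.85 RPKM against 3.59, 2.91 and 2.7 RPKM (limma adjusted p = 0.00354). These 3 genes kept the call without any 1 library.

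Changes of the other cytokinin response factors were smaller. CRF3 averaged 4.65 ± 1.07 RPKM in the RNAi line and 2.9 ± 0.085 RPKM in Col-0 (limma adjusted p = 0.0168), and CRF4 averaged 6.07 ± 0.333 and 4.85 ± 0.392 RPKM (limma adjusted p = 0.0162). CRF7 and CRF8, a closely related pair, were lower, with log2 fold changes of -0.22 and -0.28 (limma adjusted p = 0.0292 and 0.0271). None of these 4 calls was firm. CRF3 lost it without Col-0 replicate 1 or 3 (adjusted p up to 0.0585), CRF4 without RNAi replicate 2 or Col-0 replicate 1 or 2 (up to 0.0619), CRF8 without any 1 Col-0 replicate (up to 0.094) and CRF7 without RNAi replicate 1 or 2 or Col-0 replicate 1 or 2 (up to 0.0943). CRF11 did not pass (log2 fold change 0.35, limma adjusted p = 0.0722), although it did without RNAi replicate 3 (adjusted p = 0.0112). CRF2 did not pass either (log2 fold change -0.08, limma adjusted p = 0.566). CRF12, outside the description match, was also not called (log2 fold change 0.08, limma adjusted p = 0.348). CRF1 was below the filter, at 0.64, 0.46 and 0.56 RPKM against 0.68, 0.77 and 0.89 RPKM, and CRF9 was at 0.02 RPKM or less in each library.

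The DREB2 subfamily, IV, held the largest log2 fold change of the tested AP2/ERF genes with a pseudocount of 1. With a pseudocount of 5, DREB19 was at 1.43 and CRF6 at 1.83. DREB19 (AT2G38340, chromosome 2, 16067396 to 16068615, TAIR10.1) was at 10.4, 9.48 and 6.51 RPKM in the RNAi line and at 0.02, 0.13 and 0.14 RPKM in Col-0. All 3 Col-0 libraries were near 0, the ratio of means was 91.0 and the log2 fold change was 3.14 (SE 0.16, limma adjusted p = 0.00181 with no filter on low values). Its annotated span shares 275 bases with AT2G38350, which averaged 0.257 RPKM in the RNAi line and 0.0467 RPKM in Col-0, and 42 bases with AT2G38330, at 9.27 and 15.3 RPKM. An antisense RNA gene, AT2G08960, shares 205 bases and averaged 0.0933 RPKM in the RNAi line and 0.13 RPKM in Col-0. The sources used here do not say how reads in shared bases were assigned. DREB2C averaged 6.85 ± 1.68 RPKM in the RNAi line and 4.42 ± 0.0321 RPKM in Col-0 (limma adjusted p = 0.0255), a call lost without RNAi replicate 2 or any 1 Col-0 replicate (adjusted p up to 0.0754). DREB2A, the best known activator of the subfamily and outside the description match, went the other way. It was at 4.44, 4.04 and 3.89 RPKM in the RNAi line, against 6.98, 8.21 and 8.45 RPKM in Col-0 (log2 fold change -0.79, limma adjusted p = 0.000712), with no overlap. DREB2B, also outside the match, was not called (log2 fold change 0.26, limma adjusted p = 0.15).

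The 300 bases before the annotated starts of DREB19 and CRF6, the pair of tested genes with the largest log2 fold changes, are shown from TAIR10.1, 5′ to 3′ on the gene's strand. Capitals mark matches on either strand to the GCC box GCCGCC, the DRE core CCGAC, the G-box CACGTG, the W-box core TTGAC, the evening element AAAATATCT and the mitochondrial dysfunction motif, a spaced element bound by factors of the mitochondrial stress response.
DREB19 (chr2:16068616-16068915, minus strand): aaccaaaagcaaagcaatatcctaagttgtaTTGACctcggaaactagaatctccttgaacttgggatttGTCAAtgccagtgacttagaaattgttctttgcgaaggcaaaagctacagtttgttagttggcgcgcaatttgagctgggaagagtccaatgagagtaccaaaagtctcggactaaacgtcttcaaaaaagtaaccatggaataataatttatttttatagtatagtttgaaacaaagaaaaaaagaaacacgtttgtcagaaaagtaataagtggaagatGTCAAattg
CRF6 (chr3:22804698-22804997, plus strand): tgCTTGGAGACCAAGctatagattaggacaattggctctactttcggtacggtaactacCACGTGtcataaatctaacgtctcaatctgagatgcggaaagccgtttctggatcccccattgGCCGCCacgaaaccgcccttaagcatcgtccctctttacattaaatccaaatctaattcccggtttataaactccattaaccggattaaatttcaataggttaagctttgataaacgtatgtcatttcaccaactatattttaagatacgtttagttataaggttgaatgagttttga
The DREB19 window holds 3 W-box cores, a motif found in 50.4% of the 18561 windows of tested genes, and none of the other motifs. The CRF6 window holds 1 mitochondrial dysfunction motif at positions -298 to -286 from the start, 1 G-box at -241 to -236 and 1 GCC box at -178 to -173, none of which overlap. Among the same 18561 windows these motifs were found in 1.62%, 7.97% and 2.40%. Of the 25 AP2/ERF genes called higher, the mitochondrial dysfunction motif was found in 3, CRF6, CRF5 and AT4G13040, the G-box in 5 and the GCC box in 2. Of the 17 called lower, these motifs were found in 0, 1 and 0, and of the 33 not called in 0, 4 and 1. Over all 128 genes their shares were 3.91%, 14.1% and 3.91%. The DRE core was found in 3 of the 25, in 4 of the 17 and in 9 of the 33, against 15.2% of all windows, and the W-box core in 18, 7 and 21. These are letter matches only.

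The DREB1 genes, which drive the cold response, were all below the filter, as was DREB1A outside the match. CBF2, the highest, was at 0.63, 0.34 and 0.46 RPKM in the RNAi line and at 1.37, 0.89 and 1.48 RPKM in Col-0, and CBF1 was at 0.08, 0.07 and 0.19 RPKM against 0.37, 0.38 and 0.32 RPKM. The RNAi values of both genes lay below every Col-0 value, without a test. Of 11 listed cold and dehydration genes known to carry the DREB element, 10 were tested, 6 fell and 2 rose. The chloroplast cold-protection genes COR15B and COR15A, neighbours of similar sequence, averaged 1.23 ± 0.662 against 8.4 ± 1.95 RPKM and 1.08 ± 0.412 against 6.75 ± 2.31 RPKM (limma adjusted p = 0.00113 for COR15B and 0.0012 for COR15A). LTI65, also known as an abscisic acid-induced gene, lay higher instead, at 13.11, 7.98 and 1.87 RPKM, against 0.44, 0.81 and 0.31 RPKM in Col-0 (log2 fold change 2.24). Its Col-0 mean was 0.52 RPKM, so it passed the filter through its RNAi values. With no filter on low values it was not called (limma adjusted p = 0.0581). The call with the filter was also lost without RNAi replicate 2 or Col-0 replicate 3 (adjusted p up to 0.0522). The other rise, in HSFA3, was kept only without RNAi replicate 1 (adjusted p up to 0.127 in the other 5 fits). LTI65 was highest in RNAi replicate 1 and lowest in replicate 3, as was the seed storage gene SESA1, at 37.51, 7.87 and 6.01 RPKM in RNAi replicates 1, 2 and 3. The part of seed material was not tested.

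Of 9 tested TINY-like DREB genes of subfamily III, 4 fell and 1 rose, shares of 44.4% and 11.1%, against 27.5% and 25.2% of all tested genes. Leaving out 1 library gave 3 to 5 lower and 0 or 1 higher. Of 9 tested genes of subfamily II, which includes the DEAR genes, 3 fell and 2 rose, shares of 33.3% and 22.2% that are close to those of all genes. Both increases, in AT1G44830 and AT1G77640, were kept whichever library was left out. AT1G44830, however, passed the filter, which these fits keep, through its RNAi values. Without RNAi replicate 2, Col-0 replicate 2 or Col-0 replicate 3 the count of decreases was 1. DEAR3, which averaged 13.6 ± 0.355 RPKM in the RNAi line and 15.4 ± 0.325 RPKM in Col-0 (limma adjusted p = 0.021), was lost in each of those 3 fits (adjusted p up to 0.0884). AT3G16280 was at 1.65, 1.95 and 1.84 RPKM in the RNAi line and at 3.13, 3.51 and 3.67 RPKM in Col-0 (log2 fold change -0.66, limma adjusted p = 0.00101). AT4G32800, at 2.11, 2.18 and 2.85 RPKM against 4.2, 4.06 and 4.35 RPKM, had a log2 fold change of -0.63 (limma adjusted p = 0.00224). AT4G16750 averaged 2.75 ± 0.397 and 4.12 ± 0.318 RPKM (limma adjusted p = 0.00747). In all 3 the groups were separate. AT2G44940 averaged 5.09 ± 1.16 and 7.31 ± 0.757 RPKM (limma adjusted p = 0.034), and lost the call without RNAi replicate 2 or Col-0 replicate 1 or 2 (adjusted p up to 0.11). DEAR2, a DREB factor with a repression motif, was at 4.43, 6.08 and 7.62 RPKM in the RNAi line, against 9.35, 11.16 and 11.39 RPKM in Col-0 (log2 fold change -0.74, limma adjusted p = 0.0107). AT4G31060 averaged 5.34 ± 1.14 and 7.48 ± 0.601 RPKM (limma adjusted p = 0.0303), and was not called without RNAi replicate 1, without RNAi replicate 2 or without any 1 Col-0 replicate (adjusted p up to 0.102). AT1G44830 of subfamily II was higher, at 4.1, 4.56 and 3.14 RPKM against 0.61, 0.6 and 0.98 RPKM in Col-0, a ratio of 5.39 (log2 fold change 1.51, limma adjusted p = 0.00431 with no filter on low values).

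The remaining DREB genes changed little. Of 6 tested genes of subfamily I, which includes regulators of wound-induced dedifferentiation, 1 rose: AT1G64380, with means of 3.22 ± 0.614 RPKM in the RNAi line and 1.94 ± 0.172 RPKM in Col-0 (limma adjusted p = 0.0117). The share called higher was 16.7% and none was called lower, against 25.2% and 27.5% of all tested genes. RAP2.4, also named WIND1 in the literature and the highest member, was at 79.09, 84.96 and 92.88 RPKM against 88.07, 87.26 and 89.34 RPKM. Its groups overlapped, and the log2 fold change was -0.05 (SE 0.07, limma adjusted p = 0.603).

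**Figure D3:**
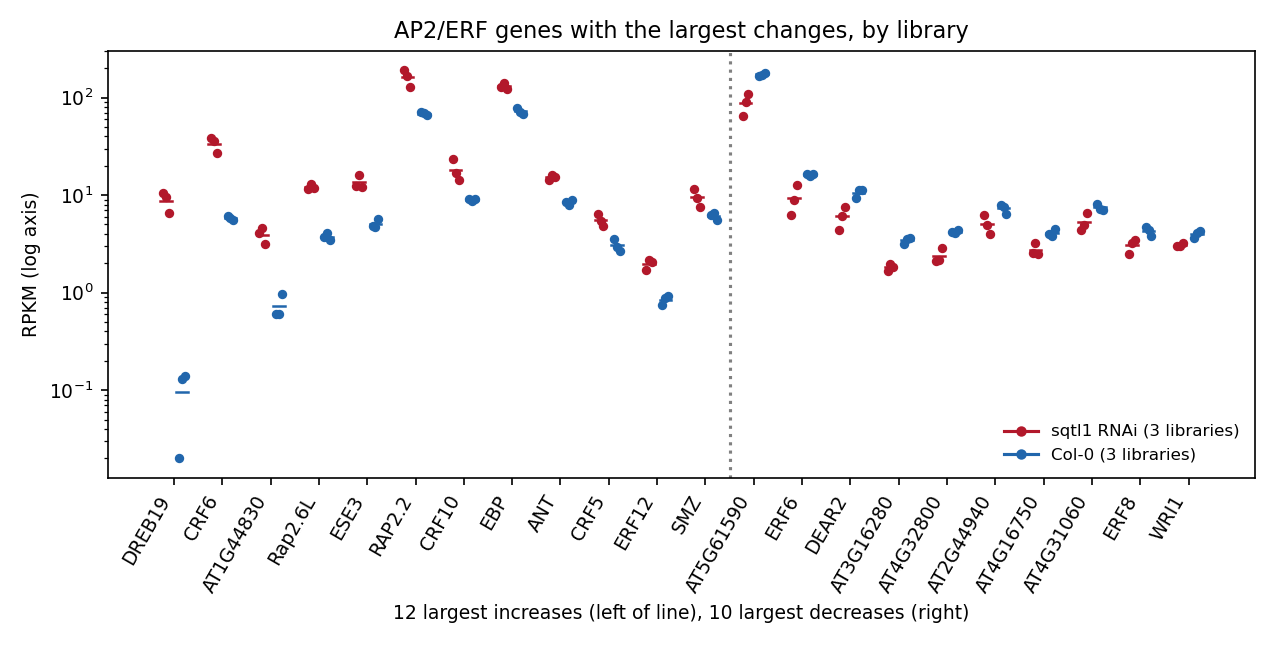
RPKM on a log axis for each library of the 12 AP2/ERF genes with the largest called increase, left of the dotted line, and the 10 with the largest called decrease, right of it; red points are sqtl1 RNAi libraries, blue points Col-0 libraries and short lines group means. DREB19 averaged 8.8 RPKM in the RNAi line against 0.0967 RPKM in Col-0, while the decreases stayed within a 1.97-fold range.

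Subfamily IX, which holds the ethylene and jasmonate activators of defence, gave 3 lower and 1 higher gene of 9 tested. The shares were 33.3% and 11.1%, against 27.5% and 25.2% of all tested genes. Without RNAi replicate 2 or any 1 Col-0 replicate, 1 lower gene was left, AT5G61590. AT5G61590, named DEWAX after its repression of cuticular wax synthesis, was the AP2/ERF gene with the highest mean level of all. It was at 64.3, 90.19 and 108.26 RPKM in the RNAi line and at 168.03, 172.01 and 177.9 RPKM in Col-0. No library overlapped, and the RNAi mean was 1.97-fold lower than that of Col-0 (log2 fold change -1.0, SE 0.18, limma adjusted p = 0.00415). ERF6, a stress-activated factor that restrains leaf growth, was at 6.2, 8.97 and 12.73 RPKM against 16.34, 15.88 and 16.6 RPKM (log2 fold change -0.80, limma adjusted p = 0.0203). AT5G07580 averaged 85.6 ± 2.04 RPKM in the RNAi line and 94.8 ± 1.82 RPKM in Col-0 (limma adjusted p = 0.0412), a call kept only without RNAi replicate 1 (adjusted p up to 0.154 in the other 5 fits). The ERF6 call was lost without RNAi replicate 2 or any 1 Col-0 replicate (adjusted p up to 0.0647). AT5G51190, named ERF105, averaged 5.19 ± 0.597 RPKM in the RNAi line and 3.57 ± 0.356 RPKM in Col-0 (limma adjusted p = 0.00862), but its whole span of 965 bases lies within that of AT5G51180, which averaged 8.16 RPKM in the RNAi line and more in Col-0. ERF-1, ERF2, ERF5, ERF104 and ERF15 did not pass, with log2 fold changes between -0.48 and 0.06. ORA59, outside the description match, did not pass either, although its groups did not overlap (log2 fold change 0.26, limma adjusted p = 0.0745). ERF1 itself, a direct target of EIN3, was low, at 0.4, 0.38 and 0.45 RPKM against 0.3, 0.23 and 0.3 RPKM, and was not tested.

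Ethylene perception genes upstream of these factors were partly higher. Of 11 ethylene signalling genes, 6 rose and none fell, although ERS2 lost the call without RNAi replicate 2 or Col-0 replicate 2 or 3 (adjusted p up to 0.0671). The share called higher was 54.5%, against 25.2% of all tested genes. The receptor genes ETR2 and ERS1 averaged 13.5 ± 1.75 against 5.7 ± 0.41 RPKM and 49.9 ± 6.55 against 34.4 ± 1.15 RPKM, and the kinase gene CTR1, a negative regulator, averaged 30.4 ± 2.49 against 21.5 ± 0.241 RPKM (limma adjusted p = 0.000469, 0.00513 and 0.00177). EIN3 and EIL1, which encode the factors that switch on ERF1, had log2 fold changes of 0.03 and -0.02 (limma adjusted p = 0.73 and 0.838). Defence genes with a GCC box went both ways: of 6 listed, 3 were tested, 1 rose and 1 fell. That is 33.3% each way, close to the 25.2% higher and 27.5% lower of all tested genes. PR4 was 2.51-fold higher, and the defensin gene PDF1.3 was at 0.3, 0.04 and 0.37 RPKM against 4.2, 1.71 and 7.11 RPKM in Col-0 (log2 fold change -1.98). PDF1.3 passed the filter through its Col-0 values, and with no filter on low values its limma adjusted p was 0.0286. The defensin genes are similar copies. The deposited multiple-mapping ratio is 0 for each of the 4 listed, and the sources used here do not define that ratio.

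The repressor subfamily VIII gave 3 higher and 2 lower genes of 9 tested, none past 1 log2 unit. These shares, 33.3% and 22.2%, are close to the 25.2% and 27.5% of all tested genes. With the filter kept, ERF12 was the only one called whichever library was left out, and without Col-0 replicate 1 it was the only one called. ERF12 and ERF11 passed that filter through their RNAi values. ERF12 was at 1.7, 2.17 and 2.07 RPKM in the RNAi line, against 0.74, 0.89 and 0.92 RPKM in Col-0 (log2 fold change 0.69, limma adjusted p = 0.00606 with no filter on low values). ERF11 was lost without RNAi replicate 1 or 3 or Col-0 replicate 1 or 2 (adjusted p up to 0.0962), ERF9 without RNAi replicate 2 or any 1 Col-0 replicate (up to 0.104) and the repressor gene ERF4, which was lower, without RNAi replicate 2 or Col-0 replicate 1 or 3 (up to 0.0924). ERF8 averaged 3.07 ± 0.488 and 4.32 ± 0.48 RPKM (limma adjusted p = 0.025), and lost the call without RNAi replicate 2 or Col-0 replicate 1 or 2 (adjusted p up to 0.0878). The repressor genes ERF3 and ERF7 did not pass and averaged 27.5 ± 2.01 against 28.8 ± 0.965 RPKM and 16.4 ± 0.198 against 16.1 ± 0.265 RPKM, with log2 fold changes of -0.07 (SE 0.07) and 0.03 (SE 0.04).

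Subfamily X, known for wounding, stress and regeneration, held a firm increase among its better expressed genes. Rap2.6L, required for shoot regeneration and wound healing, was at 11.56, 12.91 and 11.87 RPKM in the RNAi line and at 3.75, 4.05 and 3.48 RPKM in Col-0. The spread within groups was small, and Rap2.6L was 3.22-fold higher (log2 fold change 1.46, SE 0.07, limma adjusted p = 9.05e-05). RAP2.6 averaged 7.79 ± 1.17 and 5.56 ± 0.858 RPKM (limma adjusted p = 0.0327), and lost the call without RNAi replicate 1 or 2 or Col-0 replicate 1 or 3 (adjusted p up to 0.0997). Of the 4 untested members, ABR1, ERF115 (AT5G07310) and AT5G61890 had groups that did not overlap. ERF115, which drives stem cell renewal after damage in the root, was at 0.42, 0.51 and 0.35 RPKM in the RNAi line and at 0.01, 0.01 and 0.02 RPKM in Col-0, about 67 estimated reads against 1. AT5G61890, its close relative, was at 0.8, 0.79 and 0.81 RPKM against 0.1, 0.12 and 0.02 RPKM, and ABR1 was at 1.17, 0.88 and 0.96 RPKM against 0.34, 0.49 and 0.47 RPKM.

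ESE3 of subfamily V, named as inducible by ethylene and salt, was at 12.47, 16.08 and 12.25 RPKM in the RNAi line and at 4.85, 4.68 and 5.73 RPKM in Col-0. It was 2.67-fold higher (log2 fold change 1.26, SE 0.12, limma adjusted p = 0.000517), with no overlap. Its relative SHN2, a regulator of cuticle formation, was lower in every RNAi library, at 0.01, 0.01 and 0.03 RPKM against 1.71, 1.69 and 1.5 RPKM. This amounts to about 1 estimated read in the RNAi line and 194 in Col-0. Its mean over all libraries was below the filter, so it was not tested. SHN3 was at 0.01 RPKM or less in each library. AT4G13040, the lone member outside the main branches, averaged 10.7 ± 0.974 and 8.8 ± 0.783 RPKM (limma adjusted p = 0.0483), and lost the call without RNAi replicate 2, without RNAi replicate 3 or without any 1 Col-0 replicate (adjusted p up to 0.148).

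Genes of the branch with a doubled AP2 domain changed in both directions. ANT, which keeps young organs growing, was at 14.44, 15.96 and 15.32 RPKM in the RNAi line, against 8.53, 7.94 and 9.02 RPKM in Col-0 (log2 fold change 0.77, SE 0.06, limma adjusted p = 0.000358). Its relatives AIL5, AIL6 and AIL7, outside the description match, also rose. AIL5 was at 5.93, 4.59 and 2.78 RPKM against 0.87, 0.97 and 1.1 RPKM (log2 fold change 1.41). Its Col-0 mean was 0.98 RPKM, so it passed the filter through its RNAi values. The AIL5 call was kept with no filter on low values (limma adjusted p up to 0.0144 over the alternatives). AIL7 was at 5.29, 3.89 and 3.14 RPKM against 0.96, 0.98 and 1.21 RPKM (log2 fold change 1.30, limma adjusted p = 0.00105), and AIL6 had a log2 fold change of 0.35 (limma adjusted p = 0.003). The root stem cell regulators PLT1, PLT2 and BBM were below the filter, and all 3 had RNAi values below every Col-0 value. BBM was at 0.31, 0.67 and 0.58 RPKM in the RNAi line, against 1.06, 1.23 and 1 RPKM in Col-0, and PLT1 was at 0.42, 0.61 and 0.55 RPKM against 0.9, 0.74 and 0.74 RPKM. The shoot meristem markers moved in the direction of ANT and 3 of 5 root markers in that of the root stem cell genes, and their part was not tested.

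The floral repressors of the AP2 group, which act against flowering, were split. SMZ averaged 9.47 ± 2.00 RPKM in the RNAi line and 6.13 ± 0.48 RPKM in Col-0 (limma adjusted p = 0.0176), while RAP2.7, also named TOE1, averaged 20.8 ± 2.2 and 25.2 ± 1.84 RPKM (limma adjusted p = 0.0409). SMZ lost the call without RNAi replicate 2 or Col-0 replicate 1 or 3 (adjusted p up to 0.0661), and its span shares 544 bases with AT3G54980, at 3.16 and 2.66 RPKM. RAP2.7 kept it only without RNAi replicate 1 (adjusted p up to 0.131 in the other 5 fits). TOE2, outside the match, was firmer, at 29.03, 27.79 and 25.14 RPKM against 17.06, 16.85 and 15.51 RPKM (log2 fold change 0.70, limma adjusted p = 0.000604). WRI1, the activator of fatty acid synthesis, was at 2.98, 2.99 and 3.26 RPKM against 3.63, 4.06 and 4.27 RPKM (log2 fold change -0.29, limma adjusted p = 0.0144), a call lost without RNAi replicate 2 or Col-0 replicate 2 or 3 (adjusted p up to 0.0593). Of 6 plastid genes known as WRI1 targets, 5 fell and 1 rose, shares of 83.3% and 16.7%, against 27.5% and 25.2% of all tested genes. The rise, in PKP-BETA1, was lost without any 1 Col-0 replicate (adjusted p up to 0.0884), and the decrease of ACP1 without RNAi replicate 2 or Col-0 replicate 2 or 3 (up to 0.144). Among the others, BCCP2 was at 10.33, 9.91 and 11.98 RPKM in the RNAi line, against 27, 26.81 and 27.49 RPKM in Col-0 (log2 fold change -1.26, limma adjusted p = 0.000143), and MOD1 and KASI had log2 fold changes of -0.76 and -0.55 (limma adjusted p = 0.00106 and 0.000719). The leaf marker genes fell as well, and their part in these decreases was not tested.

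**Figure D4:**
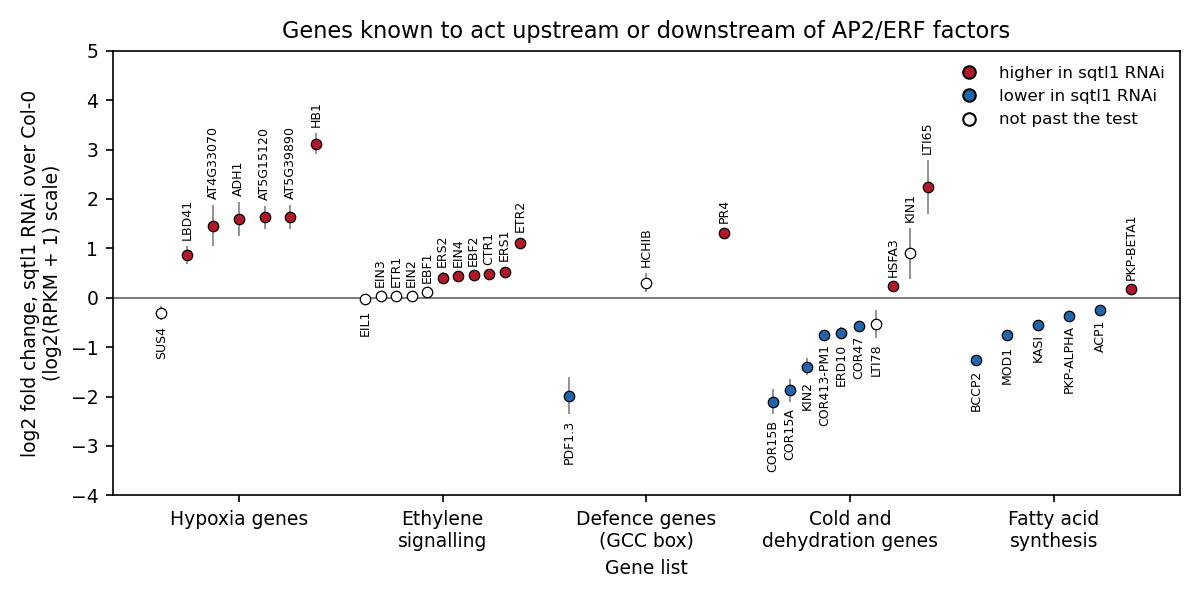
Log2 fold change of sqtl1 RNAi over Col-0 on the log2(RPKM + 1) scale, with standard errors, for the tested genes of 5 lists linked to AP2/ERF factors; red points were called higher, blue points lower and white points neither. The hypoxia list has 6 of 7 genes in red with HB1 at 3.12, and the fatty acid list has 5 of 6 genes in blue.

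Of the 53 AP2/ERF genes below the filter, 16 were under 0.1 RPKM in every library. Groups that did not overlap were found for 13 that were higher and 11 that were lower in the RNAi line, while among the 18736 genes below the filter the shares were 8.09% and 5.62%. Those 18736 include genes that do not code for protein and genes at 0 in every library, whose groups cannot lie apart. That background is therefore not matched to the AP2/ERF genes. No test was made on the AP2/ERF genes below the filter, and those named here were picked after their values were seen. ABI4, a regulator of abscisic acid and seed responses, was at 2.35, 1.45 and 0.11 RPKM in the RNAi line and at 0, 0.05 and 0 RPKM in Col-0. AT1G72570, of the ANT group, was at 0.97, 0.64 and 0.14 RPKM against 0, 0.01 and 0 RPKM. Both were highest in RNAi replicate 1 and lowest in replicate 3, and seed storage genes were also highest in replicate 1; the part of seed material was not tested. AT1G12890 was at 1.64, 1.3 and 0.89 RPKM against 0.05, 0.24 and 0.12 RPKM. On the lower side, AT3G57600 of the DREB2 subfamily was at 0.13, 0.05 and 0.12 RPKM against 0.51, 0.47 and 0.57 RPKM in Col-0.

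Of the 20 AP2/ERF genes outside the description match, 13 were tested, 4 rose and 3 fell. The shares of 30.8% and 23.1% are close to the 25.2% and 27.5% of all tested genes. DREB2A, ADAP and CEJ1 fell, and the AIL genes and TOE2 rose. CEJ1, a DREB repressor of the DEAR group, was at 8, 7.69 and 9.9 RPKM in the RNAi line, against 12.73, 13.64 and 13.91 RPKM in Col-0 (log2 fold change -0.60, limma adjusted p = 0.00255). Among RAV genes, EDF3, inside the match, was at 10.92, 7.88 and 7.04 RPKM in the RNAi line and at 6.02, 6.84 and 6.38 RPKM in Col-0, apart but not past the threshold (log2 fold change 0.36, limma adjusted p = 0.0784). Outside it, RAV1, TEM1 and RAV2 did not pass, with log2 fold changes of -0.26, 0.00 and -0.34. DRNL, which marks organ founder cells of the shoot, was below the filter, at 1.05, 1.68 and 1.18 RPKM against 0.09, 0.17 and 0.15 RPKM.

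The RNAi libraries differed among themselves in how far these genes lay from Col-0. For the 25 genes called higher, the median difference from the Col-0 mean was 0.70, 0.54 and 0.53 log2 units in RNAi replicates 1, 2 and 3. For the 17 called lower it was -0.45, -0.32 and -0.25. These genes were called from the same values, so the distances are a description.

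**Figure D5:**
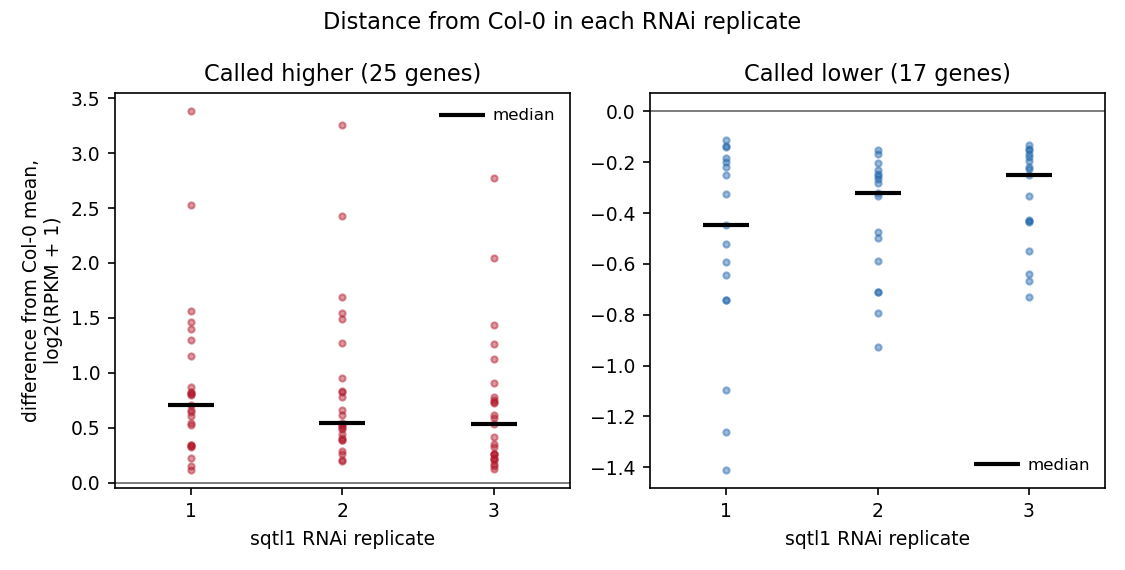
Difference of each sqtl1 RNAi replicate from the Col-0 mean on the log2(RPKM + 1) scale, for the 25 AP2/ERF genes called higher (left) and the 17 called lower (right); each point is a gene and the black bar is the median. The median distance is largest in replicate 1 on both sides, at 0.70 and -0.45.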

How the data were processed

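RNA of whole seedlings was measured in 6 libraries, 3 of sqtl1 RNAi and 3 of Col-0. The values are RPKM as deposited by the authors, with gene length and a weighted multiple-mapping ratio, a fraction from 0 to 1 per the file headers. Per the submitters' processing notes, Trimmomatic 0.39, Bowtie2 2.2.6 and TAIR10 were used. The library kit keeps strand, per the labels' protocols. The sources used here do not state the counting tool, gene set, strand setting or scaling between libraries. RPKM times gene length in kb, over all genes, summed to 926820 to 979309 in the RNAi libraries and to 1051600 to 1071469 in Col-0. The main test used the values without further scaling between libraries. Of 38199 lines, 5 name no gene and were left out. Of the 128 members, none had a multiple-mapping ratio above 0.1. For 1 further gene that the description match takes, the result is not reported here.

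The test was limma's (version 3.58.1, R 4.3.3), run on log2(RPKM + 1) with a variance trend. Genes had to average 1 RPKM or more over all libraries, with Benjamini-Hochberg adjustment over all 19458 genes tested. Fold changes on this scale understate those of low genes. Ratios are of mean RPKM. Depth was estimated from the steps between low values of genes shorter than 0.4 kb. Between 90.8% and 93.1% of these values lay within 0.0055 RPKM of a step. Symbols, coordinates and sequences are from RefSeq's TAIR10.1 tables and genome, and all 128 members matched. Subfamilies and lists were set from general knowledge. Members and lists were chosen with earlier results of these data known. Members were named by a rule: the 12 largest increases and 10 largest decreases among called genes without overlap, all tested members of subfamilies VI and VII, the 4 highest, the 2 largest calls of other subfamilies and the 3 largest of each list. Genes outside it were named after their values were seen. Alternatives were other pseudocounts, filters and scalings, a replicate block, removal of multiply mapping genes and leaving out each library.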

Additional observations from a re-analysis of the deposited data

How the results depend on the processing

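With a mean of at least 5 RPKM required, 14 AP2/ERF genes were higher and 11 lower in sqtl1 RNAi, over 45 tested; fewer genes were tested. Leaving out 1 library gave 15 to 26 higher and 6 to 19 lower. Pseudocounts of 0.1 and 5, no filter, quantile normalization, median centring and removal of multiply mapping genes kept both counts within 1.5 times 25 and 17. With no filter, 42 AP2/ERF genes were called, of which 27 were among the 42 of the comparison with the filter. No shared call changed sign under any of these 14 alternatives. Of 670 log2 fold changes of 49 named genes recomputed, 594 stayed on their side of the threshold, 73 lost the call and 3 gained it.

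Replicate numbers did not pair the samples: deviations of same-numbered libraries correlated at -0.064, 0.093 and 0.020. With the replicate block, 23 AP2/ERF genes were higher and 12 lower. Low levels limit the 53 untested genes.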
